A study of Drosophila melanogaster with 6 samples.

Results

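Long stretches of the chromosome arms in which no replicate had a region enriched for ubiquitylated histone H2B (H2Bub) were examined in wild-type *Drosophila melanogaster* embryos. The regions of 3 replicate lists were merged on arms 2L, 3L, 3R and X, and every stretch of at least 50 kb between consecutive merged regions was taken. Stretches had to lie wholly outside the 2 Mb nearest the centromeric end of the assembled arm. This gave 356 stretches of the 4205 stretches of any length between merged regions on these arms. The members were selected on the positions of the regions in all 3 replicates, so their lengths and positions are a description. They carry no test, except where a list that had no part in the choice was used, or where arms were compared in each replicate's own list.

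H2B ubiquitylation is attached to nucleosomes by the Bre1 ubiquitin ligase together with its conjugating enzyme, and the deubiquitylating module of the SAGA complex removes it. The mark is placed while RNA polymerase II elongates, and it is best known from the bodies of transcribed genes. The fly's chromosome arms also hold long blocks of chromatin in which few genes are transcribed in any one tissue. Gene content was not examined here, since no gene annotation of the files' genome release was at hand.

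The chromatin came from Oregon-R embryos of the modENCODE stock, aged 14 to 16 h, with a wild-type genotype and no treatment. It was crosslinked with formaldehyde and precipitated with the antibody NRO3 against H2Bub in 3 ChIP replicates, and 3 input samples were sequenced beside them. Whole embryos were used, so the lists average over all of their cell types. The labels do not say that the replicates were separate collections of embryos. Every p-value below rests on these 3 samples, and the spread among them may be technical. With 3 values, the exact sign-flip permutation test used below returns p = 0.25 whenever all 3 share a sign, whatever their spread. On the 4 arms the replicate lists held 4090 to 4219 regions that covered 23.3 to 26.9 Mb, and a list of the whole series held 4538 regions over 29.9 Mb. The lists give no read counts, so the depth behind them is unknown. A base outside the lists is uncalled and was not shown to lack the mark. Whether reads can be placed in the stretches was not tested. The word euchromatic would rest on distance from the centromere alone, because the lists hold no mark of heterochromatin.

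The 356 stretches took up 34.8 Mb, or 38.7% of the 89.9 Mb of arm that lay outside the proximal windows. They were 8.95% of the 3976 stretches in these windows by number and held 56.7% of the 61.4 Mb of uncalled bases between regions. Their median length was 77.6 kb, with quartiles at 61.5 and 116 kb, against a median of 3110 bp for the 3620 shorter stretches. Thus few of the intervals between H2Bub regions held most of the uncalled sequence. In the lists taken singly, stretches of this kind numbered 388, 367 and 373 in replicates 1, 2 and 3, and spanned 40.1, 36.6 and 38.4 Mb. The mean was 376 ± 10.8 stretches and 38.3 ± 1.72 Mb (SD, n = 3). Merging the lists can only shorten or split a stretch, and the merged total was below that of every single list.

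Short members were the commonest, and the long ones carried a large part of the bases. Stretches of 50 to 75 kb numbered 166 and held 29.2% of the member bases. Stretches of 75 to 100 kb numbered 69, those of 100 to 150 kb numbered 71, and those of 150 to 200 kb numbered 32. The 18 stretches of at least 200 kb were 5.06% of the members and held 13.1% of their bases. The 100 longest held 47.1%. Lengths ran continuously through the threshold. The 3 members just above it were 50013 bp on 3R from 14619000 to 14669012, 50081 bp on X from 16111085 to 16161165 and 50095 bp on 3L from 17842783 to 17892877. The 3 stretches just below it were 49875 bp on 3L from 21569367, 49849 bp on 3L from 11002763 and 49802 bp on 3R from 24990147.

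The longest stretch was 460 kb on 3L, from 18178855 to 18638586. In the replicates' own lists the interval that contains it measured 460.5, 484 and 461 kb, and it was longest in replicate 2. The second was 399 kb on 2L, from 15768569 to 16167649, with 402, 399 and 402 kb in replicates 1, 2 and 3. These 2 stood apart from the rest, since the next was 277 kb. It lay on 2L from 16917060 to 17193743 and measured 279, 277 and 284 kb in the 3 lists. The fourth, also on 2L, was 276 kb, from 14690027 to 14966213, and it was the most variable of the 10 longest relative to its length, with 293, 276 and 302 kb. Thus 3 of the 4 longest lay on 2L within about the same part of the arm, 5.82 to 8.05 Mb from its centromeric end.

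The longest stretch on X was 264.4 kb, from 7237372 to 7501801. Its edges were nearly the same in every list, with 264.5, 264.5 and 264.7 kb in replicates 1, 2 and 3. The longest on 3R was 261 kb, from 8545648 to 8806370, with 267, 261 and 265 kb. The other four of the 10 longest were 249 kb on 3L from 19291483, 243 kb on 3R from 23902192, 234 kb on 3R from 19210214 and 226 kb on 3R from 12978865. None of the 10 longest shared a bordering region with another member. All 10 lay at least 5.00 Mb from the centromeric end of their arm.

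Most members had nearly the same extent in every list. In 228 of 356 stretches (64.0%), the containing interval was at most 10% longer than the member in all 3 replicates. Taken singly, this held for 73.3% of the members in replicate 1, 89.6% in replicate 2 and 79.8% in replicate 3. Each end of a member was set by a region of these same lists, so part of this agreement is fixed by the merging. The same share over shorter stretches is not given, and 10% of a long member is many bases. In 26 members the interval was at least 2 times as long in at least 1 replicate, and in 0 members in all 3. The largest expansion was a member of 50.7 kb on 3L, from 22401705 to 22452439, beside the proximal window. Its interval measured 258.5 kb in replicate 1, 50.7 kb in replicate 2 and 306 kb in replicate 3, and it ran into the proximal window in the replicates where it was long. The next was a member of 51.8 kb on 2L, from 11743738, whose interval was 51.8 kb in replicate 1 and 170.7 and 170.5 kb in replicates 2 and 3. In both cases an end of the member rested on a region that 1 replicate alone had.

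A replicate that took no part in the choice had few called bases inside the stretches. Stretches were taken from each pair of lists in turn, which gave 356, 360 and 365 of them, and the regions of the left-out replicate were laid over them. Regions of replicate 1 covered 0.156% of the bases inside, against 40.7% of the rest of the windows. Replicate 2 covered 0.742% inside and 47.6% outside, and replicate 3 covered 0.536% inside and 45.8% outside. The difference, inside minus outside, was -44.3 ± 3.28 percentage points (SD, n = 3) and was negative in 3 of 3 cases. An exact sign-flip permutation test (two-sided) returned p = 0.25, the smallest value that 3 replicates allow. The 3 cases share lists with each other and are not independent. The rest of the windows includes every base that the choosing lists called, so lists that share regions give a negative difference by design. The difference therefore describes the overlap of the lists. Shorter stretches uncalled in the same pairs were not compared.

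The regions that the left-out replicate placed inside were narrow and low in score beside its whole list. Replicates 1, 2 and 3 had 19, 80 and 74 regions wholly inside such stretches, with median widths of 1612, 1724.5 and 1656 bp, where the medians of their whole lists were 3119, 3606 and 3413 bp. Their scores fell short of the median score of the list they came from in 94.7%, 96.2% and 90.5% of cases. Both other lists lack these regions by definition. Regions of the same kind outside the stretches were not compared, so the traits may not be particular to the stretches. The widest was 6505 bp, in replicate 2. A further 120, 292 and 193 regions of replicates 1, 2 and 3 ran over an edge of such a stretch. With their bases counted as well, the stretches that held no called base of the left-out list were 65.4% for replicate 1, 24.7% for replicate 2 and 44.1% for replicate 3. The same share over stretches of any length is not given, so these shares have no background here. Replicate 1, whose list covered the fewest bases, left the largest share of the stretches untouched, and the part of list size in this was not tested.

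The 4 arms differed little in the density of long stretches. X had 79 members over 7.77 Mb, 3.87 per Mb of window. Arm 2L had 84 over 8.57 Mb, 3L had 83 over 7.96 Mb and 3R had 110 over 10.5 Mb, with 4.00, 3.68 and 4.25 per Mb. The median length was 86.6 kb on X and 86.1 kb on 2L, and 74.2 kb on 3L and 72.7 kb on 3R. In the replicates' own lists, stretches made up 41.7% ± 1.72 of the window on X, 44.1% ± 1.68 on 2L, 39.4% ± 1.43 on 3L and 45.1% ± 2.82 on 3R (SD, n = 3 each).

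**Figure D1:**
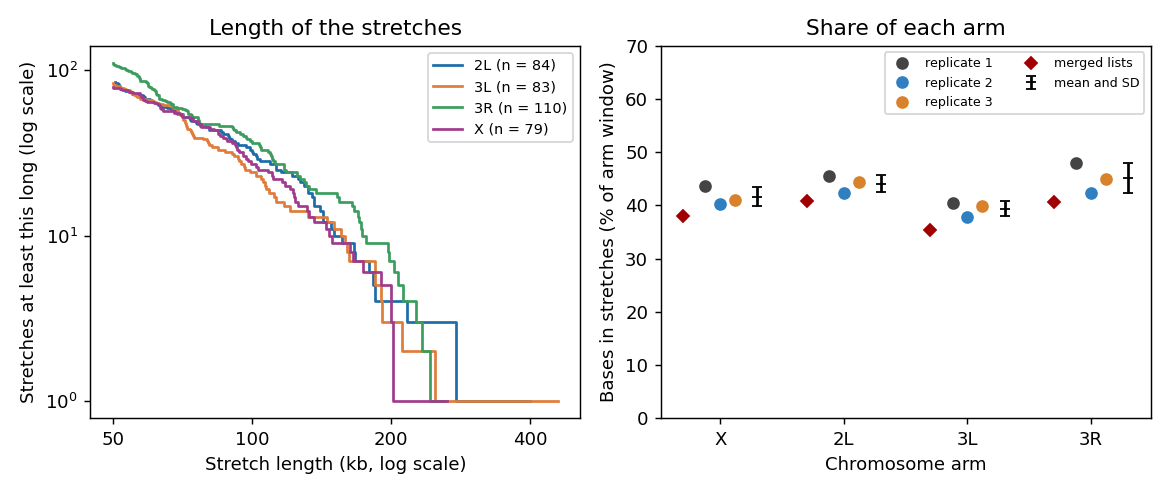
Left, number of stretches at least as long as the value on the horizontal axis, for each arm, with both axes on a log scale. Right, share of each arm's window inside stretches of at least 50 kb, for the merged lists (diamonds) and for each replicate's own list (circles), with the mean and SD of the 3 replicates; the merged values run from 35.3% on 3L to 40.8% on 2L.

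X had a slightly smaller share of its window in long stretches than the 3 autosomal arms as a whole. In the own lists X minus autosomes was -1.24, -0.541 and -2.10 percentage points in replicates 1, 2 and 3, with a mean of -1.29 ± 0.780 (SD, n = 3). The means were 41.7% on X and 43.0% on the autosomal arms. The same exact permutation test returned p = 0.25, again the smallest possible. The difference depended on the cuts used. It was -0.148 ± 1.25 points with stretches of at least 60 kb, -0.248 ± 0.725 and -0.860 ± 0.762 with limits of 1 and 4 Mb from the centromeric end, -2.24 ± 0.963 with regions of at least 2000 bp, and -6.86 ± 1.07 with only the higher-scoring 50% of each list (SD, n = 3 each).

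Between pairs of arms the own-list shares kept their order in every replicate. Arm 2L exceeded 3L by 4.76 ± 0.318 points and X by 2.47 ± 0.819 points (SD of the within-replicate differences, n = 3). Arm 3R exceeded X by 3.47 ± 1.23 points, while 3L minus 3R was -5.76 ± 1.57 points and 3L minus X was -2.29 ± 0.994 points (SD, n = 3 each). The difference of 2L minus 3R, -0.998 ± 1.25 points (SD, n = 3), was within the spread between replicates. For each of the 6 pairs the exact permutation test returned p = 0.25, which adjustment cannot lower. The pairs were added after the files had been seen.

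Along the arms the share of bases inside members varied. In 43 full steps of 2 Mb, measured from the centromeric end, the share of bases inside members ran from 19.4% to 64.4%, with a median of 39.7%. Its SD over steps was 11.6 points, and the median SD between the replicates' own lists was 2.36 points. The second value measures repeated calling of the same positions and not the scatter that random placement would give. Whether the steps differ by more than such scatter was not tested. Neighbouring steps are not independent. In 9 steps members held at least 50% of the bases, and every step held 3 or more members.

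The step with the highest share of bases inside members lay on 3R, next to one with a low share. From 2000001 to 4000000, members of the merged lists held 64.4% of the bases, and own-list stretches held 69.4%, 65.7% and 68.2% in replicates 1, 2 and 3. From 4000001 to 6000000 the merged share was 19.7%, and the own-list shares were 24.3%, 22.0% and 25.7%. H2Bub regions covered 16.2% ± 1.47 of the first step and 40.9% ± 2.03 of the second (SD, n = 3 each). The first step held 12 members, of 50.3 to 212 kb, and 4 of them were at least 100 kb. Its longest were 212 kb from 3492965 to 3705120 and 203 kb from 3095358 to 3298252. The steps named here and below were chosen after their values were seen.

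On 2L and 3L the rich steps formed a block in the part of the arm nearer the centromere, though not next to it. On 2L, members held 56.9%, 57.2%, 53.0% and 51.4% of the steps from 4 to 12 Mb from the centromeric end, against 29.2% from 2 to 4 Mb and 21.7% from 14 to 16 Mb. H2Bub regions covered only 13.9% ± 1.70 (SD, n = 3) of the step at 6 to 8 Mb, which contains the 399 kb stretch. On 3L the share was 50.2% and 54.6% from 6 to 10 Mb, against 21.2% from 2 to 4 Mb and 19.4% from 20 to 22 Mb. On X the steps differed less, from 27.0% at 20 to 22 Mb to 48.1% at 16 to 18 Mb. Arm 3R had rich and poor steps at several places along its length, with 58.1% at 8 to 10 Mb, 29.4% at 10 to 12 Mb, 19.8% at 18 to 20 Mb and 50.7% at 22 to 24 Mb. Its steps from 12 to 18 Mb were intermediate, with 46.5%, 42.9% and 40.8%.

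**Figure D2:**
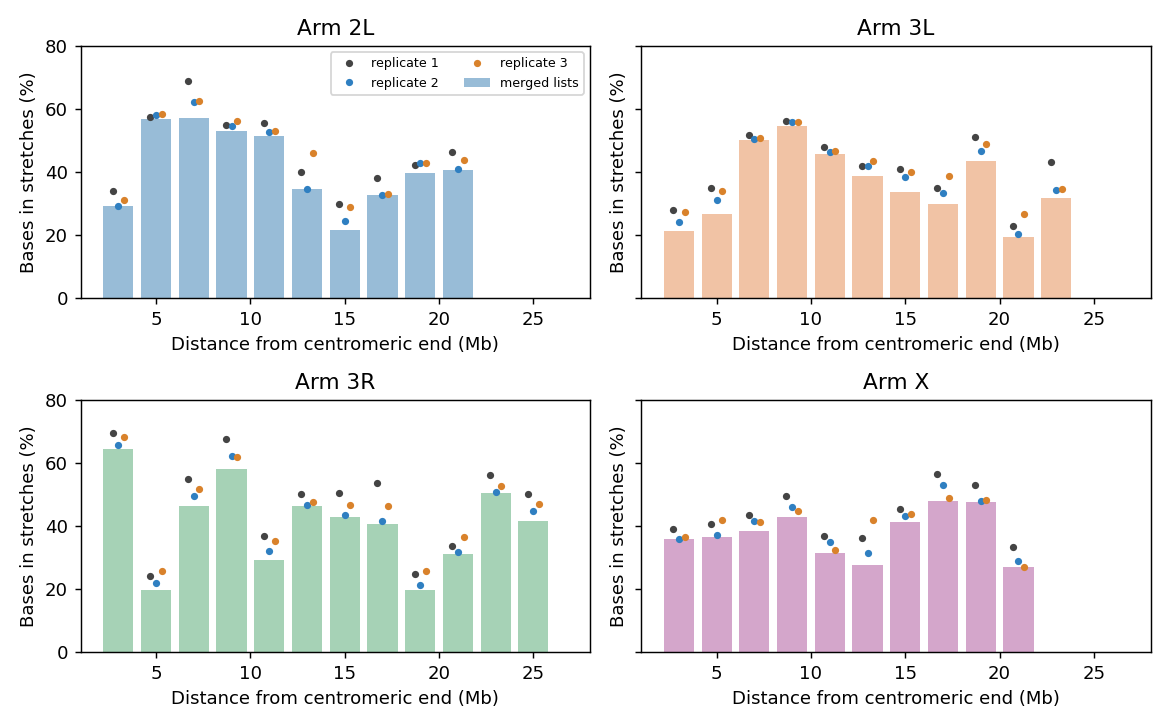
Share of bases inside stretches of at least 50 kb in full steps of 2 Mb from the centromeric end of each arm, for the merged lists (bars) and each replicate's own list (points). The bar at 2 to 4 Mb on 3R reaches 64.4% and its neighbour 19.7%, and the points lie at or above the bars because merging can only shorten a stretch.

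With each window split into 3 equal parts, members held 43.2% of the part nearest the centromere, 36.3% of the middle and 36.7% of the part nearest the telomere. The own-list shares were 47.0% ± 1.63, 40.8% ± 1.99 and 40.3% ± 2.28 in the same order (SD, n = 3). The excess near the centromere was large on 2L, with 50.1%, 36.7% and 35.5%, and small on 3L, with 36.9%, 36.3% and 32.8%. On 3R the shares were 44.7%, 38.5% and 38.5%. On X they were 41.3%, 33.0% and 39.9%, so there the part nearest the telomere was close to the part nearest the centromere. Of the 18 stretches of at least 200 kb, 10 lay in the part nearest the centromere and 3 in the part nearest the telomere. Members also came close to the arm ends. The outermost began 30.7 kb from the distal end on 3R and 36.6 kb on X, and lay 576 and 378 kb from it on 2L and 3L.

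Long stretches that reached into the 2 Mb nearest the centromere were set aside by the rule. There were 35 of them over 5.18 Mb. The members had a median length of 77.6 kb, against 117 kb for these 35.

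Many members had another member within 50 kb. The distance from one member to the next along an arm had a median of 94.2 kb, with quartiles at 31.6 and 191 kb over 352 distances. For 196 members (55.1%) another lay within 50 kb, and for 92 (25.8%) within 10 kb. A single merged region lay between a member and its neighbour for 96 members (27.0%), which are called adjoining here. On X 20.3% of the members adjoined another, on 2L 39.3%, on 3L 22.9% and on 3R 25.5%. The own-list shares were 15.6% ± 2.69 on X, 37.2% ± 1.29 on 2L, 22.8% ± 0.655 on 3L and 25.2% ± 3.96 on 3R (SD, n = 3 each). The share on 2L was above that of the other arms by more than the spread between replicates. Among stretches of at least 100 kb, 3.31% adjoined another of that length. Whether members lie closer together than their density alone would give was not tested, so these shares do not show clustering.

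The adjoining members formed 46 runs, of which 42 joined 2 stretches and 4 joined 3. The runs spanned 113 to 370 kb, with a median of 185 kb. The longest lay on X from 13724875 to 14095342 and spanned 370 kb, with stretches of 165 and 202 kb on both sides of a region of 2941 bp. That region was called in every replicate, over 2313, 2941 and 2352 bp in replicates 1, 2 and 3. It was the sole region of the replicate lists within the run, and 99.2% of the run was uncalled in them. The series-wide list had a further region of 1944 bp there, from 13731294 to 13733237. The second run lay on 3L from 13039273 to 13379568, with stretches of 67.3, 109 and 107 kb. A region of 5614 bp and one of 51284 bp separated them, and the wider one was called over 51282, 51109 and 51155 bp in the 3 replicates. The third, on 3L from 15156275 to 15492032, held stretches of 71.7, 91.7 and 156 kb around regions of 9592 and 6601 bp. It was uncalled over 95.2% of its 336 kb.

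The regions that separated adjoining members were wider and ranked higher in score than regions that bordered no member. Of these 50 regions, 39 (78.0%) were called in all 3 replicates, 3 in 2 and 8 in 1, where 68.0% of all 3980 merged regions in these windows were called in all 3. Their median width was 5886 bp, against 3779 bp for the 3318 merged regions that bordered no member. The highest score within a separating region had a median rank at percentile 74.1, 76.1 and 72.8 of its list in replicates 1, 2 and 3. For regions that bordered no member it was 56.8, 52.2 and 53.0. Between single regions of the same width, in 10 width classes of each list, the separating ones scored higher by 0.125, 0.282 and 0.162 on the deposited scale in replicates 1, 2 and 3. Of the 50, 7 were under 2 kb wide. The same lists chose these regions, so the difference has no test.

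All 662 merged regions at the edge of a member were also wider and ranked higher, by less. They had a median width of 4814.5 bp, against 3779 bp for other merged regions, and 10.3% of them were 20 kb or wider, against 5.73%. Of the bordering regions, 469 (70.8%) were called in all 3 replicates, close to the background of 68.0% over all merged regions. A further 118 (17.8%) were called in 1 list only, close to the 18.8% of all merged regions. That list was replicate 1 for 15, replicate 2 for 53 and replicate 3 for 50, a split that was not set against all merged regions. The highest score within a bordering region ranked at a median percentile of 62.3 ± 2.25, against 54.0 ± 2.44 for the others (SD, n = 3). Taken as single regions of 1 list, those at an edge scored higher than the rest by 0.0668 ± 0.0304 on the deposited scale (SD, n = 3). Between regions of the same width class the difference was 0.0184 ± 0.00470 (SD, n = 3). Most of the difference in score therefore went with width.

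**Figure D3:**
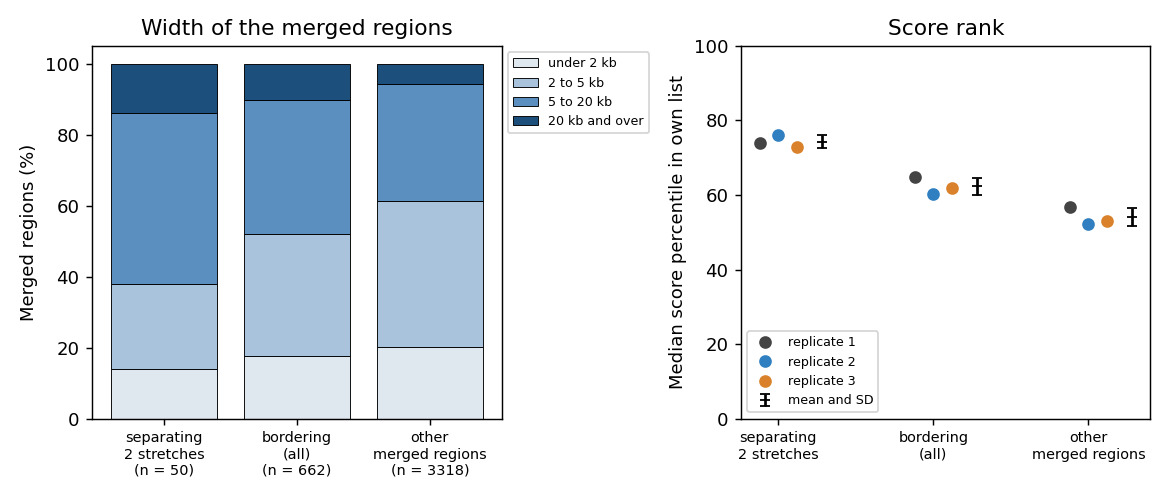
Left, shares of merged regions in 4 width classes, for regions that separate adjoining stretches, for all bordering regions (which include them) and for other merged regions; 14.0%, 10.3% and 5.73% were 20 kb or wider. Right, median percentile of each region's highest score within its own list, per replicate, with mean and SD of the 3 replicates; the 3 replicates give the same order of the groups.

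Broad H2Bub regions could end directly at a long stretch. The 5 widest bordering regions were 116.5 kb on 3R from 5699527 to 5816063, 115.5 kb on 3L from 22286241 to 22401704, 88.8 kb on X from 12097392 to 12186173, 88.3 kb on 3R from 4896127 to 4984408 and 87.3 kb on 3L from 13573123 to 13660423. Each bordered 1 member. The 2 widest bordered members of 63.8 and 50.7 kb. The region on X bordered a stretch of 174 kb, from 11923445 to 12097391, and the last one a stretch of 211 kb, from 13660424 to 13871684. Replicate regions covered 86.8%, 98.7% and 98.2% of that last region in replicates 1, 2 and 3, and at least 97.5% of each of the other four in every replicate.

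The length of a member told little about its borders. Spearman's rho between length and border width was -0.0619 on the left and -0.0464 on the right over 356 members, and it was -0.00706 between the widths of the left and right border. These are descriptions, since members share lists and adjoining members share a border. The median border width was 5017 bp for members of 50 to 75 kb, 4382 bp for 75 to 100 kb, 5391 bp for 100 to 150 kb and 4385 bp for at least 150 kb. Both borders were under 5 kb for 97 members (27.2%). At least 1 border was 20 kb or wider for 70 members (19.7%), and both were for 5.

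The edges were placed alike by the replicates in most cases. Of 712 edges, 406 (57.0%) had a called base of every replicate within 1 kb of the edge. The second-nearest replicate lay at a median of 157 bp outward and the farthest at 567.5 bp. At 68 edges (9.55%) the second-nearest replicate was more than 10 kb away, so the edge there was set by a region of 1 list. Replicate 2 set 47.9% of the edges, replicate 3 set 32.9% and replicate 1 set 19.5%, with ties counted for each list. Replicate 2 also covered the most bases, and replicate 1 the fewest.

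Outside the stretches coverage fell off quickly with distance from the edge. In the first 10 kb outward, H2Bub regions covered 51.0%, 61.9% and 57.1% of the bases in replicates 1, 2 and 3. An edge starts with a region by definition, so this first value is fixed in part by the rule. From 10 to 20 kb the covered share was 38.7% ± 3.16, from 20 to 50 kb 30.6% ± 2.45, from 50 to 100 kb 27.9% ± 2.07 and from 100 to 200 kb 27.0% ± 2.02 (SD, n = 3 each). The whole windows, members included, were covered over 27.1% ± 2.00 (SD, n = 3). Each flank counts whatever lies there, other members included. Within each replicate, the flanks from 50 to 100 kb exceeded the whole windows by 0.813, 1.00 and 0.728 points, and those from 100 to 200 kb differed from them by -0.151, -0.127 and -0.111 points.

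**Figure D4:**
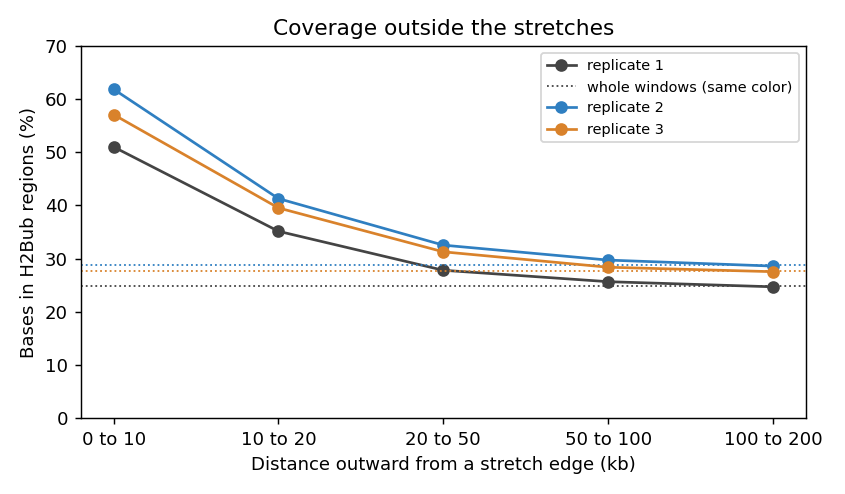
Share of bases inside H2Bub regions in bins of distance outward from the 712 edges, for each replicate, with dotted lines for the share over the whole windows. Every replicate falls from 51.0% to 61.9% in the first 10 kb to 24.7% to 28.6% at 100 to 200 kb, near its dotted line.

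The spaces between members ranged up to 1077 kb. That longest space without a member lay on 3L, from 20685793 to 21762824, and held 53 merged regions that covered 27.7% ± 1.69 of it in the replicate lists (SD, n = 3). Next came 954 kb on 2L from 7782447 to 8736184, with 69 merged regions and 49.1% ± 4.33 covered, and 896 kb on 2L from 6415302 to 7311271, with 59 regions and 32.6% ± 2.99 covered (SD, n = 3 each). The windows outside the members, which are the like measure, were covered over 44.2% ± 3.26 (SD, n = 3). The spaces from 20685793 and 6415302 were thus below that value and the one from 7782447 was above it.

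The series-wide list added little inside the stretches. It touched 292 of 356 members (82.0%), and it touched 79.4% of all stretches of any length in these windows, so that the share was close to that background. Its bases made up 0.673% of the members, 234 kb in all, against 4.84% of the shorter stretches and 0.182% of the long stretches that reached into the proximal windows. These shares were not matched for distance to an edge. No base of the series-wide list lay in the remaining 64 members. In 330 members (92.7%) at least 50 kb in one piece stayed free of it. The libraries behind this list are not named, and it cannot be taken as independent of the replicates. When replicate 2 was left out of the merged lists its share of the stretches was 1.50%, and with only the higher-scoring 50% of its regions it was 0.0993%.

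Most contacts of the series-wide list were small shifts of an edge. Regions that also overlapped a replicate region ran over 383 of the 712 edges (53.8%), with a median of 56.5 bp and at most 2001 bp per region, and added 67.7 kb. The remaining 167 kb came from 121 regions that overlapped no replicate region, in 87 members. There were 3.48 such regions per Mb of member, against 14.2 per Mb of shorter stretch and 0.772 per Mb of the long proximal stretches. These densities were not matched for distance to an edge, and the shorter stretches had a median length of only 3110 bp. Within 5 kb of an edge, the members held 12.6 such regions per Mb. The 121 regions in the members had a median width of 1294 bp, and the widest was 2202 bp. In width, 62 (51.2%) fell short of 1301 bp, which is the smallest region on these arms in the replicate lists. In score, 118 of the 121 (97.5%) were below the median of the series-wide list on these arms, 0.565, and their own median was 0.370. Widths and scores of the like regions in shorter stretches are not given, so these traits may not be particular to the members.

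The regions added within the stretches lay mostly near their edges. The nearer edge was at a median of 8.36 kb, and 63 of the 121 (52.1%) lay within 10 kb of one, a zone with 20.5% of the member bases. Per Mb of member there were 12.6 added regions within 5 kb of an edge, 5.06 from 5 to 10 kb, 2.95 from 10 to 20 kb, 2.25 from 20 to 40 kb and 1.27 from 40 kb inward. The innermost class rests on 12 regions. Added regions thus thinned out toward the middle of the stretches.

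**Figure D5:**
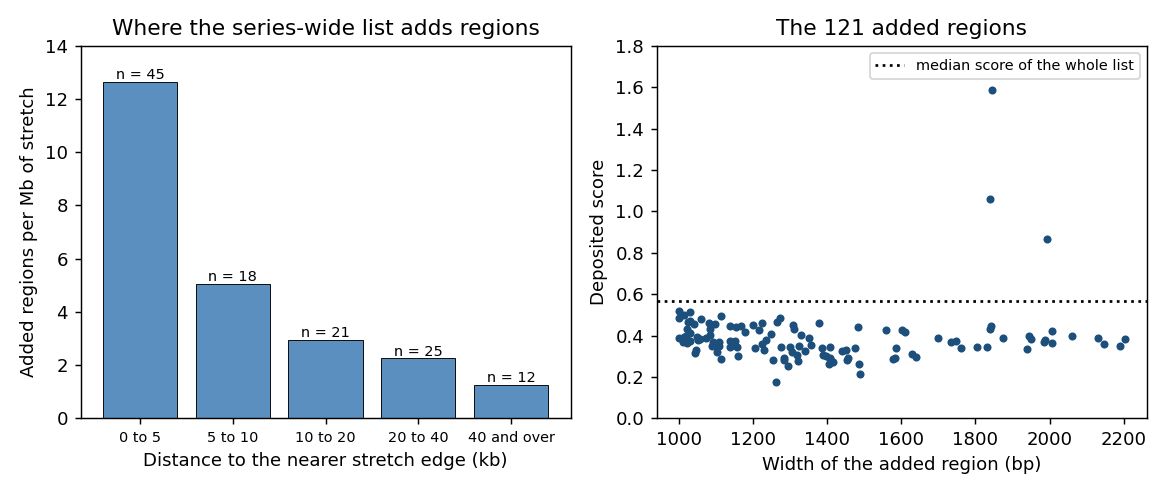
Left, regions of the series-wide list that overlap no replicate region, per Mb of stretch, by distance from the region to the nearer edge of the stretch, with their number above each bar; the density falls from 12.6 within 5 kb to 1.27 at 40 kb and over. Right, width and deposited score of these 121 regions, with 3 points above the dotted median of the whole list.

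Only 3 added regions scored above the list's median. The highest, with 1.59, was 1845 bp wide on 2L from 5834721 to 5836565, in a member of 55.2 kb and 22.6 kb from its nearer edge. The second, with 1.06, was 1838 bp wide on 3L from 18040838 to 18042675, 39.3 kb inside a member of 117 kb. The other, with 0.866, was 1994 bp wide on X from 7019414 to 7021407, 14.9 kb inside a member of 85.2 kb. All 3 were wider than the smallest replicate region, yet no replicate list had a region there. These 3 were picked after their scores were seen.

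The 5 members with the most added bases measured 57.2 to 118 kb. All but the longest of them were shorter than the median member, 77.6 kb. On 3R from 23116981 to 23235313, a stretch of 118 kb held 7580 bp of the series-wide list, with 5 regions wholly inside. On X from 11147828 to 11218572, a stretch of 70.7 kb held 6389 bp, again with 5 regions inside, and its longest free piece was 31.2 kb. Its containing interval was 71.5, 160.4 and 160.8 kb in replicates 1, 2 and 3, so that replicate 1 alone had the region of 1344 bp at its left edge. The next were 5308 bp on X from 13382889, 4788 bp on 3L from 17045764 and 4608 bp on X from 8827793. At most 9.03% of any of the 5 was covered. Among the 10 longest members the series-wide list covered at most 1.03%, in the 399 kb stretch on 2L, where 3 regions lay wholly inside and the longest free piece was 281 kb. The 460 kb stretch on 3L held 1406 bp of it at its ends and kept 458 kb free in one piece.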

How the data were processed

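The authors deposited a list of significantly enriched regions for each of 3 ChIP replicates and 1 list for the whole series, each with a first base, a last base and a deposited score whose definition was not given in the sources used here. Per the file headers, positions refer to FlyBase release 5, and they are counted from 1. Per the submitters' processing notes, alignment used Bowtie 0.12.7. The region caller, its threshold and how multiply mapping reads were treated were not given in the sources used here. For the input samples, nothing but the labels was used.

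Regions that overlapped or touched were merged over the replicates, and stretches were measured between merged regions with Python 3.11.15. A region counted as called in a list when 1 bp overlapped. Scores were compared within a list only. Sign-flip permutation tests were exact and two-sided. Interval steps were tested on simulated lists with planted gaps. The stretches, lists and tests were chosen with earlier results of these data known. Stretches named are the 10 longest, the longest per arm, 3 on each side of the threshold, the 5 with the most series-wide bases, the 3 longest runs and the 5 widest borders. Other items were named with their values in view. The gene table at hand is on release 6, so no gene or sequence is given.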

Additional observations from a re-analysis of the deposited data

How the results depend on the processing

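Of 66 recomputed values, 47 kept their direction or stayed within the set limits and 19 moved. The limits differed between results, and some were wide. The tested differences only had to keep their sign. For the series-wide share of 0.673% the limit was 0.949 points to either side, so no fall could count as moved. The 47 is therefore not a measure of stability. The count of 356 stretches stayed within 1.5 times under every alternative but a threshold of 100 kb, which left 121. The summed length of 34.8 Mb was 38.0, 30.4 and 18.6 Mb with thresholds of 40, 60 and 100 kb. It was 38.3 Mb where a base had to be called in at least 2 lists and 43.5 Mb where all 3 were needed. It was 46.8 Mb with the higher-scoring 50% of each list, 38.7 Mb with regions of at least 2000 bp and 33.0 Mb in the series-wide list alone. It was 36.7 and 31.8 Mb with limits of 1 and 4 Mb from the centromeric end. The share of members that adjoin another, 27.0%, was 30.5%, 20.7% and 3.31% with thresholds of 40, 60 and 100 kb. Defined by distance, it was 25.8%, 30.6% and 55.1% within 10, 20 and 50 kb. Leaving out each replicate gave 25% to 26.8%. The share of bordering regions called in all 3 replicates, 70.8%, was 63.6% where 50% of the merged bases had to be called. No share over all merged regions is given under that stricter rule, so the 63.6% has no background here. Why these values moved was not tested beyond what each definition fixes. Leaving out each replicate gave 356 to 365 stretches and 35.2 to 36.2 Mb. The sign-flip tests cannot pass a threshold of 0.05 with 3 replicates, so their p-values say nothing about stability. No paired analysis was possible because the input samples, which share replicate numbers with the ChIP samples, have no list here.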
